A study of Homo sapiens with 30 samples.

Results

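The 9 genes described here are BNIP3, NDRG1, PDK1, LDHA, SLC2A1, PFKFB4, HK2, ANKRD37 and DDIT4, a set of hypoxia-responsive genes of glucose metabolism, mitophagy and growth control. They were taken by name from the expression files, where each name stood on a single row, out of 22538 distinct gene names. All 9 of 9 were among the 8531 genes tested, those with 1 FPKM or more in at least 3 libraries. FPKM is the number of fragments per kilobase of transcript, scaled to the mapped fragments of the library. Of the 9 genes, 8 reached 1 FPKM in each of the 30 libraries; ANKRD37 did so in 6, all at 24 h (the 3 control wells, 2 of herbal shisha and 1 of charcoal alone). Being that close to the filter, it is counted separately from the other 8 genes below.

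RNA was sequenced from BEAS-2B cells, a human bronchial epithelial line immortalised with an adenovirus-SV40 hybrid virus, 2 h and 24 h after a 30 min exposure to 1 of 4 kinds of hookah smoke. The exposures were charcoal burnt without shisha (charcoal alone), charcoal with a herbal shisha that holds no tobacco (herbal shisha), charcoal with tobacco shisha (charcoal-heated tobacco), and tobacco shisha on an electronic heater (electrically heated tobacco). Each exposure and the control had 3 wells at each time, 10 groups in all. Every group is of this 1 line, and no genetic change sets groups apart. The smoke dose was the highest without LDH release at 24 h, so the exposures were matched on that toxicity limit, not on the amount of smoke. The sources used here do not give the handling of the control wells. They do not say either if wells of 1 group came from separate cultures, so p-values measure the spread between wells, which may be technical.

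Cells that lack oxygen stabilise the transcription factors HIF1A and EPAS1, which pair with ARNT and bind short DNA motifs near their target genes. Their targets bring glucose in (SLC2A1), trap and commit it to glycolysis (HK2, PFKFB4), turn pyruvate into lactate (LDHA) and keep it out of the mitochondria (PDK1). Others mark mitochondria for removal (BNIP3) or slow growth (DDIT4, NDRG1). Airway epithelial cells induce them when oxygen is low, and several, DDIT4 among them, also respond to nutrient shortage and other stress.

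**Figure D1:**
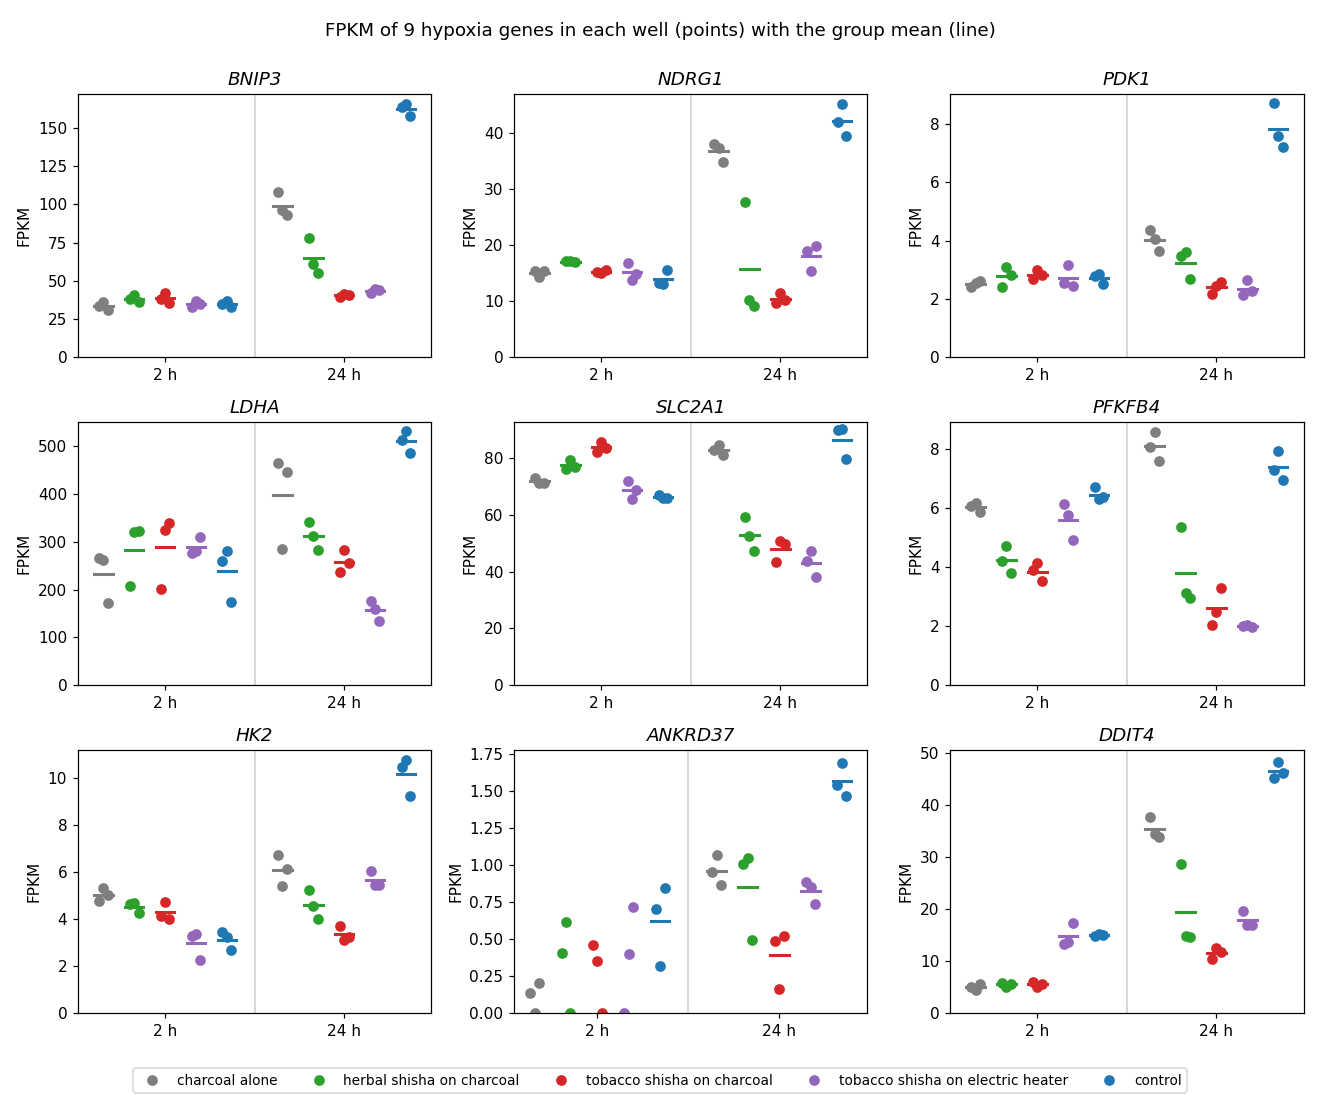
FPKM of each of the 9 genes (y axis, linear, from 0) in each well (points), with group means as lines, for 4 exposures and the control at 2 h and 24 h (x axis). Means are left out where a well was listed at 0. In the 24 h control BNIP3 reached 158 to 166 FPKM, while the 3 wells of charcoal-heated tobacco lay at 39.5 to 41.3 FPKM.

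The 250 bases upstream of the gene start were read for the members, since the HIF core motif is a known feature of such promoters and the genes are described together below. The windows are RefSeq's on GRCh38.p14. They covered 8 of the 9 genes in 11 windows, and NDRG1 is named only. The motif searched was ACGTG or GCGTG, on either strand (CACGT and CACGC on the printed strand; a CACGTG counts 2 overlapping matches). It occurred in 9 of the 11 windows, against 43.2% of all 35116 windows of this length. By gene, 7 of the 8 held it in at least 1 window, for which no share over all genes was counted. Letters in capitals mark the motif. BNIP3 is shown because it differed most between the 2 controls, LDHA for its 2 CACGTG runs, DDIT4 because it departed from the rest at 2 h, and SLC2A1 because its window held no match.
BNIP3, chr10:131981924-131982173, minus strand, 6 matches: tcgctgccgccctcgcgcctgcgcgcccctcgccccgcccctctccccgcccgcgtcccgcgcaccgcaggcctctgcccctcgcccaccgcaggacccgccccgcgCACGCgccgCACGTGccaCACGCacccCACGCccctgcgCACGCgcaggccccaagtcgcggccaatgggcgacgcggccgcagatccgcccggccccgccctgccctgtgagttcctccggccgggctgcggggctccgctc
LDHA, chr11:18394313-18394562, plus strand, 5 matches: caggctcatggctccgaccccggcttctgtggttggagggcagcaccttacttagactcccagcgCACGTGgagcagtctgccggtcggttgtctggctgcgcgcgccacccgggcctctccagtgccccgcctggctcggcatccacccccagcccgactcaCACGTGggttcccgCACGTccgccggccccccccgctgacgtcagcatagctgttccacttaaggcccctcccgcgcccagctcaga
DDIT4, chr10:72273674-72273923, plus strand, 3 matches: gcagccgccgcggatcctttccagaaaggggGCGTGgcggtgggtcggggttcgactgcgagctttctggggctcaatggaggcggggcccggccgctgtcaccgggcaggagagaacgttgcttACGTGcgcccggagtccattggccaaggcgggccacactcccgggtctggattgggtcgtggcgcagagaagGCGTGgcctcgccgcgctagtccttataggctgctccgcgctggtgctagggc
SLC2A1, chr1:42958869-42959118, minus strand, 0 matches: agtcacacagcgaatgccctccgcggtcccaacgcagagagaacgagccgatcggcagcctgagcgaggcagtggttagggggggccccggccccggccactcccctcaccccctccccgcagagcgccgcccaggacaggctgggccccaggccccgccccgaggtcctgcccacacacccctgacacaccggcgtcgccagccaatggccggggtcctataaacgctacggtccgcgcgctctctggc
Among the others, PFKFB4 had 1 match, ANKRD37 had 3, and the 2 windows of HK2 had 3 and 6. The second window of HK2 also held 2 CACGTG runs. LDHA had a second window, not printed here, with 1 match. PDK1 had 0 and 2 in its windows. A match is a run of letters and not a measured binding site, and a window without one says nothing of HIF binding elsewhere.

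The files give FPKM and no counts, so the read depth behind each value is unknown; FPKM summed to 199985 to 220259 per library, and the log2 values of wells of the same group correlated at 0.983 to 0.992. The keratins KRT8 and KRT18 stood at 560.4 and 351 FPKM in the 24 h control, whereas KRT5, CDH1, EPCAM and CLDN4, other epithelial markers, stayed under 1 FPKM in every group mean. Expressed too were 4 of 8 fibroblast markers, such as COL1A1 and THY1. CD14 and CD68 were the expressed ones of 6 immune cell markers, and PTPRC was at or near 0; no endothelial marker reached the filter.

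Replicate 1 of herbal shisha at 24 h stood apart from the other wells of its group for several of the 9 genes. It held 27.6 FPKM of NDRG1 against 10.2 and 9.07 FPKM in replicates 2 and 3, and 28.7 FPKM of DDIT4 against 14.8 and 14.6 FPKM. Results of that group are given with and without it where a call or direction changed. LDHA had 1 low well among 3 in charcoal alone, herbal shisha, charcoal-heated tobacco and control at 2 h and in charcoal alone at 24 h, which widens its error. The fit shares the spread of a gene over all groups. Replicate 1 of herbal shisha at 24 h therefore widens the error of NDRG1 in other comparisons too. The SE of a difference between 2 groups was 0.22 for NDRG1 and for LDHA.

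The control wells themselves moved between the times. Of the 8 genes present in every library, 7 rose in the 24 h control over the 2 h control and none fell (over all genes tested, 7.44% rose and 9.44% fell; limma, Benjamini-Hochberg adjusted p below 0.05, as for every call below). BNIP3, a mitophagy receptor of the outer mitochondrial membrane, held 164, 166 and 158 FPKM at 24 h, against 34.9, 36.4 and 32.6 FPKM at 2 h, 4.69 times as much by the means (log2 change 2.20, SE 0.09, adjusted p = 4.19e-14). HK2, the hexokinase that traps glucose, was 3.25 times as high by the means, DDIT4 3.10 times and NDRG1 3.03 times. SLC2A1 gained less (log2 change 0.38, adjusted p = 0.000726). PFKFB4 was not called, with a log2 change of 0.17 (95% interval -0.095 to 0.43). The median of the 8 genes was 1.34, beside -0.0078 over all genes tested. A 24 h exposure can therefore be read against the 24 h control, which shares its time, or against the 2 h control, and both are given. The 2 comparisons share the exposed wells, and they differ for each gene by this shift of the control, so they are not independent.

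At 24 h the 8 genes lay below the 24 h control after the 3 exposures that contained shisha. After herbal shisha, charcoal-heated tobacco and electrically heated tobacco, 8 of 8 fell in each, where 10.4%, 18.6% and 29.5% of all genes tested fell and 16.5%, 25.9% and 34.3% rose. Their median log2 changes were -1.03, -1.36 and -1.37, against 0.033, 0.039 and 0.035 over all genes. After charcoal alone 3 of 8 fell (BNIP3, PDK1 and HK2), where 3.82% of all genes fell and 6.05% rose, and the median was -0.39, against 0.022 over all genes. In the fit on the compared groups alone DDIT4 fell too after charcoal alone (adjusted p = 0.0108), as did ANKRD37 (adjusted p = 0.0222). Cell type markers moved as well. Of 5 epithelial markers tested, 3 fell after herbal shisha, 3 after charcoal-heated tobacco and 5 after electrically heated tobacco, where KRT19 changed by -1.24 and ELF3 by -1.76 log2 units; 1 rose after charcoal alone. The epithelial list summed to 752 to 834 FPKM after herbal shisha, 776 to 899 after charcoal-heated and 772 to 834 after electrically heated tobacco. It summed to 1156 to 1236 FPKM after charcoal alone, against 887 to 1049 FPKM in the 24 h control. Of 4 fibroblast markers 1 fell after herbal shisha and 4 after each tobacco exposure, and 3 rose after charcoal alone. Their list summed to 138 to 158 FPKM after electrically heated tobacco and 194 to 267 FPKM after charcoal-heated tobacco. It summed to 257 to 288 FPKM after herbal shisha and 358 to 367 FPKM after charcoal alone. The 24 h control held 303 to 324 FPKM. CD14 had log2 changes of -0.80, -1.26 and -0.68 after the 3 shisha exposures and 0.72 after charcoal alone, all called, and CD68 was not called. All wells were of the same 1 line, so these lists name genes and not separate cell populations. The part of these markers in the results was not tested.

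Set against the 2 h control, the 24 h exposures divided. After charcoal alone 7 of 8 rose, where 6.56% of all genes rose and 4.17% fell. After herbal shisha 2 rose and 2 fell, where 21% of all genes rose and 16.2% fell. After charcoal-heated tobacco 1 rose and 2 fell (25.8% and 20.7% of all genes), and after electrically heated tobacco 2 rose and 3 fell (33.8% and 30.1%). These last shares are near the background. The wells are given gene by gene below. Over all genes tested, wells of a 24 h exposure did not overlap the 24 h control in 35.2% to 67.4% of genes. Against the 2 h control the range was 41.5% to 69.9%.

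**Figure D2:**
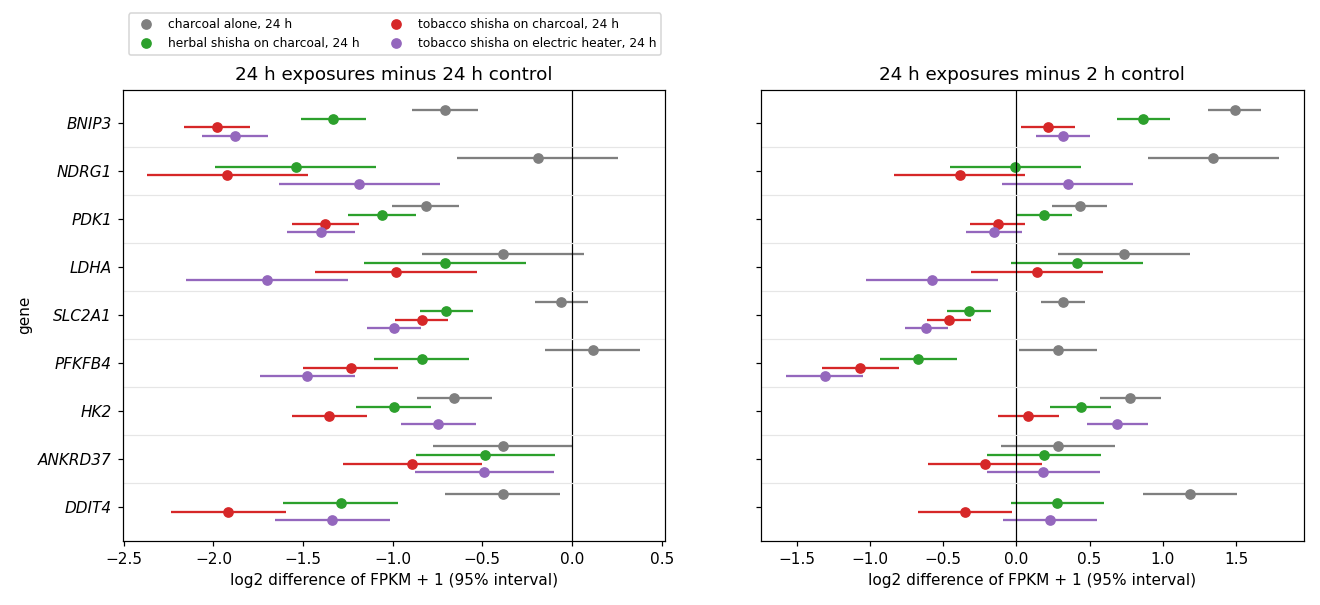
Log2 difference of FPKM + 1 with its 95% interval (x axis) for each gene (y axis) in the 4 exposures at 24 h, set against the 24 h control (left) and the 2 h control (right). All shisha exposures lie left of 0 in the left panel, while BNIP3 lies right of 0 in the right panel and SLC2A1 and PFKFB4 lie left of it after the 3 shisha exposures.

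SLC2A1 (GLUT1, the main glucose carrier of cultured cells; chr1:42925353-42958868, hg38) held 82.8, 84.7 and 80.9 FPKM at 24 h after charcoal alone, 59.0, 52.5 and 47.2 after herbal shisha, 43.2, 50.7 and 49.8 after charcoal-heated tobacco and 43.6, 47.2 and 38.1 after electrically heated tobacco. Control wells held 89.8, 90.0 and 79.5 FPKM at 24 h and 66.8, 65.7 and 65.7 FPKM at 2 h. All 9 wells of the 3 shisha exposures were below all 6 control wells. SLC2A1 fell after herbal shisha against the 24 h control (log2 change -0.70, SE 0.07, adjusted p = 8.91e-07), and by 0.84 and 0.99 log2 units after charcoal-heated and electrically heated tobacco (adjusted p = 1.19e-08 and 8.15e-11). It fell against the 2 h control as well, by 0.32, 0.46 and 0.61 log2 units in the same order of exposures (adjusted p = 0.00126, 1.96e-05 and 1.23e-07). After charcoal alone it was not called against the 24 h control (log2 change -0.060, 95% interval -0.21 to 0.089) and rose against the 2 h control by 0.32 log2 units (adjusted p = 0.0058).

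HK2 (hexokinase 2, which phosphorylates glucose and docks on mitochondria; chr2:74834127-74893359) held 6.71, 5.38 and 6.12 FPKM after charcoal alone at 24 h, 5.24, 4.54 and 4.02 after herbal shisha, 3.71, 3.10 and 3.26 after charcoal-heated tobacco and 6.04, 5.45 and 5.43 after electrically heated tobacco. Control wells held 10.5, 10.7 and 9.21 FPKM at 24 h and 3.45, 3.22 and 2.70 FPKM at 2 h. No exposed well reached the 24 h control, and the lowest were those of charcoal-heated tobacco, which overlapped the 2 h control. HK2 fell against the 24 h control in all 4 exposures, most after charcoal-heated tobacco (log2 change -1.35, SE 0.10, adjusted p = 1.57e-09) and least after charcoal alone (log2 change -0.66, adjusted p = 0.000177). Relative to the 2 h control HK2 rose after charcoal alone, herbal shisha and electrically heated tobacco, by 0.78, 0.44 and 0.69 log2 units (adjusted p = 3.03e-05, 0.00156 and 2.89e-06). After charcoal-heated tobacco the log2 change was 0.082 (95% interval -0.13 to 0.29).

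PFKFB4 (a bifunctional enzyme that sets fructose 2,6-bisphosphate, the activator of phosphofructokinase; chr3:48517684-48563136) was lower than both controls after each shisha exposure. At 24 h it held 8.09, 8.59 and 7.60 FPKM after charcoal alone, 5.34, 3.13 and 2.94 after herbal shisha, 2.02, 2.48 and 3.30 after charcoal-heated tobacco and 2.00, 2.05 and 1.98 after electrically heated tobacco. Control wells held 7.30, 7.92 and 6.96 FPKM at 24 h and 6.71, 6.29 and 6.37 FPKM at 2 h. The highest shisha well, replicate 1 of herbal shisha, was still below every control well. After electrically heated tobacco PFKFB4 fell to 0.272 of the 24 h control mean (log2 change -1.48, SE 0.13, adjusted p = 1.13e-09) and to 0.311 of the 2 h control mean (log2 change -1.31, SE 0.13, adjusted p = 8.24e-09). It fell by 0.84 and 1.23 log2 units after herbal shisha and charcoal-heated tobacco against the 24 h control, and by 0.67 and 1.06 against the 2 h control. After charcoal alone it was not called against either control in the fit over all groups (adjusted p = 0.665 against the 24 h control and 0.164 against the 2 h control, and 0.0149 against the 2 h control in the fit on the compared groups alone).

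LDHA (the lactate dehydrogenase subunit that favours lactate; chr11:18394563-18408425) was the most abundant of the 9 genes per length. It held 465, 286 and 447 FPKM after charcoal alone at 24 h, 342, 312 and 283 after herbal shisha, 238, 282 and 255 after charcoal-heated tobacco and 177, 159.7 and 135 after electrically heated tobacco. Control wells held 514, 531 and 487 FPKM at 24 h and 261, 280.5 and 175 FPKM at 2 h. All 12 exposed wells were below the 24 h control, and electrically heated tobacco gave the lowest values. There LDHA fell to 0.308 of the 24 h control mean (log2 change -1.70, SE 0.22, adjusted p = 4.16e-07). It fell by 0.98 log2 units after charcoal-heated tobacco (adjusted p = 0.000857) and by 0.71 after herbal shisha (adjusted p = 0.0185), a call lost without replicate 1 or 2 of the 24 h control or replicate 3 of herbal shisha (adjusted p = 0.0512 to 0.0777). Against the 2 h control the calls were a rise after charcoal alone (log2 change 0.74, adjusted p = 0.0315) and a fall after electrically heated tobacco (log2 change -0.58, adjusted p = 0.0241). The rise was lost without replicate 1 or 3 of either group (adjusted p = 0.0504 to 0.177), without the filter on low values (adjusted p = 0.0553) and on the compared groups alone (adjusted p = 0.0873). The fall was lost without replicate 1 or 2 of the control or replicate 3 of the exposure (adjusted p = 0.086 to 0.115).

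PDK1 (pyruvate dehydrogenase kinase 1, which keeps pyruvate out of the citric acid cycle; chr2:172555373-172724312) held 4.38, 4.05 and 3.63 FPKM after charcoal alone at 24 h, 3.48, 3.59 and 2.67 after herbal shisha, 2.17, 2.44 and 2.59 after charcoal-heated tobacco and 2.13, 2.64 and 2.26 after electrically heated tobacco. Control wells held 8.71, 7.59 and 7.22 FPKM at 24 h and 2.77, 2.85 and 2.52 FPKM at 2 h. The 12 exposed wells were all below the 24 h control, and those of charcoal alone were above the 2 h control. PDK1 fell against the 24 h control after charcoal alone (log2 change -0.82, SE 0.09, adjusted p = 4.1e-06). It fell there too after herbal shisha, charcoal-heated and electrically heated tobacco, with log2 changes of -1.06, -1.38 and -1.40. Against the 2 h control it rose after charcoal alone (log2 change 0.43, adjusted p = 0.00364). Its log2 changes there were 0.19, -0.13 and -0.15 after the shisha exposures, none called in the fit over all wells; herbal shisha passed without its replicate 3 (adjusted p = 0.0216).

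BNIP3 (chr10:131967684-131981923) had its lowest values at 24 h after the tobacco exposures. It held 108, 96.4 and 93.0 FPKM after charcoal alone, 77.9, 60.9 and 55.1 after herbal shisha, 39.5, 41.3 and 40.5 after charcoal-heated tobacco and 42.0, 44.6 and 43.6 after electrically heated tobacco, against the 24 h control wells given above. No 2 of the 5 groups overlapped, and all 12 exposed wells lay above the 3 wells of the 2 h control. The 2 tobacco exposures lay closest, and limma did not call their difference (log2 change 0.10, adjusted p = 0.371). Between them 50.1% of all genes did not overlap. BNIP3 fell to 0.249 of the 24 h control mean after charcoal-heated tobacco (log2 change -1.98, SE 0.09, adjusted p = 2.05e-13) and to 0.267 after electrically heated tobacco (adjusted p = 2.21e-13). After herbal shisha it fell by 1.33 log2 units and after charcoal alone by 0.71 (adjusted p = 9.48e-10 and 1.67e-05). Against the 2 h control it rose by 1.49 log2 units after charcoal alone, 0.87 after herbal shisha and 0.32 after electrically heated tobacco (adjusted p = 1.91e-10, 1.87e-07 and 0.0032). The rise after charcoal-heated tobacco was small (log2 change 0.22, adjusted p = 0.047). It was lost without any of 5 of the 6 wells compared, all but replicate 2 of the control (adjusted p = 0.0704 to 0.165), without the filter (adjusted p = 0.0745) and with median-of-ratios scaling (adjusted p = 0.0911).

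NDRG1 (a stress-induced gene tied to differentiation and slowed growth) held 38.0, 37.4 and 34.8 FPKM at 24 h after charcoal alone, 27.6, 10.2 and 9.07 after herbal shisha, 9.62, 11.5 and 10.1 after charcoal-heated tobacco and 19.0, 15.3 and 19.9 after electrically heated tobacco. Control wells held 41.9, 45.1 and 39.5 FPKM at 24 h and 13.2, 13.1 and 15.4 FPKM at 2 h. Charcoal alone lay just below the 24 h control, while the other exposures, replicate 1 of herbal shisha apart, were under 20 FPKM. NDRG1 fell against the 24 h control after herbal shisha (log2 change -1.54, SE 0.22, adjusted p = 2.5e-05), after charcoal-heated tobacco (log2 change -1.92) and after electrically heated tobacco (log2 change -1.19). Without replicate 1 of herbal shisha the first of these was -2.02 (adjusted p = 3.39e-12). NDRG1 rose against the 2 h control after charcoal alone (log2 change 1.34, adjusted p = 0.000319). After herbal shisha its log2 change was -0.0060 (adjusted p = 0.987), and -0.48 without replicate 1, where it passed (adjusted p = 0.000474). The tobacco exposures were not called against the 2 h control over all groups (log2 changes -0.39 for charcoal-heated and 0.35 for electrically heated tobacco), and both passed on the compared groups alone (adjusted p = 0.0153 and 0.0322).

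DDIT4 (REDD1, a brake on the growth kinase complex mTORC1; chr10:72273924-72276036) held 37.7, 34.4 and 33.9 FPKM at 24 h after charcoal alone, 28.7, 14.8 and 14.6 after herbal shisha, 10.4, 12.5 and 11.8 after charcoal-heated tobacco and 19.7, 16.9 and 16.9 after electrically heated tobacco. Control wells held 45.1, 48.3 and 46.1 FPKM at 24 h and 14.8, 15.2 and 15.0 FPKM at 2 h. At 24 h, charcoal-heated tobacco gave the only group whose wells were all below both controls. DDIT4 fell against the 24 h control after charcoal-heated tobacco (log2 change -1.92, SE 0.15, adjusted p = 5.25e-09), and by 1.29 and 1.34 log2 units after herbal shisha and electrically heated tobacco. Charcoal alone was not called (log2 change -0.39, adjusted p = 0.126), although its 3 wells were below those of the control. DDIT4 rose against the 2 h control after charcoal alone (log2 change 1.18, adjusted p = 3.06e-05). After herbal shisha, charcoal-heated and electrically heated tobacco its log2 changes were 0.28, -0.35 and 0.23, none called (adjusted p = 0.162, 0.0693 and 0.199). Herbal shisha passed without its replicate 2 or 3 (adjusted p = 0.0428 to 0.0474) and stood at -0.027 without its replicate 1. On the compared groups alone both tobacco exposures passed (adjusted p = 0.00871 for charcoal-heated and 0.0235 for electrically heated tobacco), and median-of-ratios scaling brought charcoal-heated tobacco past the threshold (adjusted p = 0.0431).

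ANKRD37, an ankyrin repeat gene induced by HIF1A (chr4:185396841-185400723), lay near the limit of the filter. At 24 h it held 0.955, 1.07 and 0.865 FPKM after charcoal alone, 1.01, 1.05 and 0.495 after herbal shisha, 0.489, 0.168 and 0.519 after charcoal-heated tobacco and 0.888, 0.856 and 0.739 after electrically heated tobacco. Control wells held 1.54, 1.69 and 1.47 FPKM at 24 h and 0.701, 0.318 and 0.849 FPKM at 2 h. At 2 h it was listed at 0 in 1 well of each of the 4 exposures, with values of 0.135, 0 and 0.207 FPKM after charcoal alone and 0, 0.403 and 0.721 FPKM after electrically heated tobacco. The 24 h control stood above every other well of the series. ANKRD37 fell against it after charcoal-heated tobacco (log2 change -0.89, SE 0.19, adjusted p = 0.000529) and after electrically heated tobacco (log2 change -0.49, adjusted p = 0.0264). The second call was lost with a pseudocount of 0.1 (adjusted p = 0.316) and without 3 of the 6 wells in turn, replicates 1 and 2 of the control and replicate 3 of the exposure (adjusted p = 0.0512 to 0.0729). Between the controls it was higher at 24 h (adjusted p = 0.0155), a call lost with a pseudocount of 0.1 (adjusted p = 0.246) and without replicate 2 of either control (adjusted p = 0.0539 to 0.0921). None of the 4 exposures at 24 h was called against the 2 h control.

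**Figure D3:**
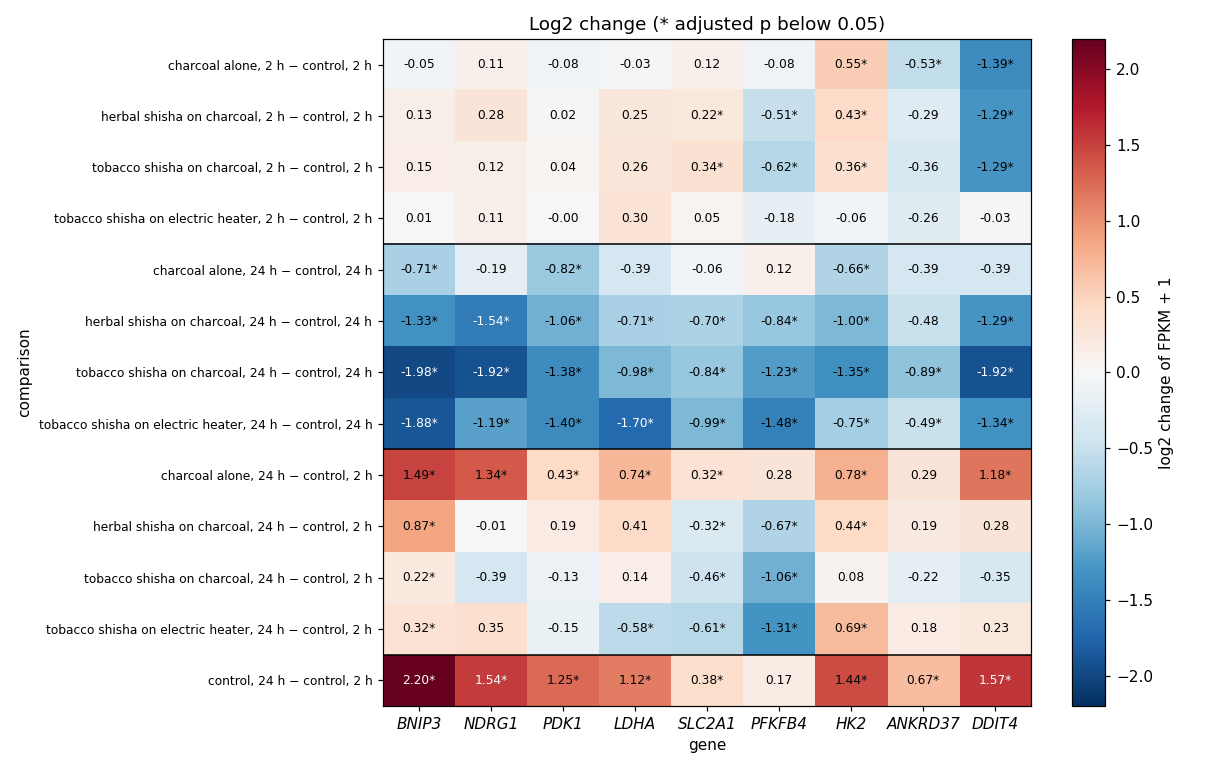
Log2 change of FPKM + 1 (colour and printed value) for each gene (columns) in 13 comparisons of an exposure or the 24 h control with a control (rows); asterisks mark an adjusted p below 0.05. The shisha exposures at 24 h are negative for all 9 genes against the 24 h control, from -0.48 to -1.98, while rows at 2 h are mixed.

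Set in order of mean level, the 24 h control came first for 8 of the 9 genes and charcoal alone at 24 h second for 7 of them. ANKRD37 is in both counts, and it passed the filter only through wells at 24 h, the 3 control wells among them. For these 2 ranks no share over all genes was counted. PFKFB4 had charcoal alone at 24 h first, at 8.09 FPKM, with wells that overlapped the 24 h control at 7.39 FPKM. SLC2A1 had charcoal-heated tobacco at 2 h in second place, at 83.7 FPKM, within the spread of the 24 h control. Of the 9 steps between neighbours in that order, the wells did not overlap at 5 for DDIT4, 4 for BNIP3, 3 for NDRG1, SLC2A1, PFKFB4 and HK2, 2 for PDK1 and 1 each for LDHA and ANKRD37; over all genes tested the median was 1, and 14.8% of genes had 3 or more such steps. The lowest group was charcoal-heated tobacco at 24 h for NDRG1, electrically heated tobacco at 24 h for PDK1, LDHA, SLC2A1 and PFKFB4, charcoal alone at 2 h for BNIP3 and DDIT4, and electrically heated tobacco at 2 h for HK2. Relative to the control means of the 2 times, the mean of charcoal-heated tobacco at 24 h was below both for 6 genes, and that of electrically heated tobacco for 4. ANKRD37 was 1 of the 6, and no share over all genes was counted for these positions. Herbal shisha was below both for SLC2A1 and PFKFB4, and charcoal alone for none, with PFKFB4 above both.

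At 2 h the 9 genes did not move as a group. Of the 8, 1 rose and 1 fell after charcoal alone (8.16% and 16.2% of all genes rose and fell), and 2 rose and 2 fell after herbal shisha (10.6% and 27.7%) and after charcoal-heated tobacco (8.5% and 26.7%). After electrically heated tobacco limma called 0 of 8 (34% of all genes were called in either direction), and 0 of 8 had an unadjusted p below 0.05. The calls after the charcoal exposures came from DDIT4, HK2, SLC2A1 and PFKFB4.

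DDIT4 held 5.11, 4.50 and 5.73 FPKM at 2 h after charcoal alone, 5.83, 5.14 and 5.68 after herbal shisha, 6.04, 5.09 and 5.54 after charcoal-heated tobacco and 13.2, 13.8 and 17.4 after electrically heated tobacco, against 14.8, 15.2 and 15.0 FPKM in the 2 h control. The 9 wells exposed to burning charcoal were all below 7 FPKM, and the wells of the electric heater overlapped the control. It fell by 1.39, 1.29 and 1.29 log2 units after charcoal alone, herbal shisha and charcoal-heated tobacco (SE 0.15 each, adjusted p = 2.72e-07, 6.62e-07 and 7.94e-07). After electrically heated tobacco the log2 change was -0.028 (95% interval -0.35 to 0.29). HK2 went the other way after the same exposures, at 4.75, 5.31 and 5.00 FPKM after charcoal alone, 4.66, 4.67 and 4.26 after herbal shisha and 4.13, 4.71 and 4.01 after charcoal-heated tobacco, against 3.45, 3.22 and 2.70 FPKM in the control. Its rises were 0.55, 0.43 and 0.36 log2 units (adjusted p = 0.000244, 0.0017 and 0.00714), the last lost without replicate 3 of the control (adjusted p = 0.0545).

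PFKFB4 fell at 2 h where shisha was heated on charcoal. It held 4.23, 4.70 and 3.82 FPKM after herbal shisha and 3.89, 4.14 and 3.52 after charcoal-heated tobacco, against 6.71, 6.29 and 6.37 FPKM in the 2 h control, with no overlap (log2 changes -0.51 and -0.62, adjusted p = 0.00286 and 0.000517). Wells did not overlap in 58.9% and 53.3% of all genes in these 2 comparisons. Charcoal alone gave 6.07, 6.18 and 5.87 FPKM of PFKFB4 and was not called (adjusted p = 0.67). SLC2A1 rose after the same pair of exposures, to 76.0, 79.3 and 76.8 FPKM after herbal shisha and 82.1, 85.6 and 83.3 FPKM after charcoal-heated tobacco, against 66.8, 65.7 and 65.7 FPKM in the control (log2 changes 0.22 and 0.34, adjusted p = 0.0165 and 0.000755). The first of these was lost without replicate 2 of herbal shisha (adjusted p = 0.0554). After charcoal alone SLC2A1 held 73.0, 71.3 and 71.0 FPKM, called only on the compared groups alone (adjusted p = 0.011) and with median-of-ratios scaling (adjusted p = 0.0474). BNIP3 had log2 changes of -0.055 to 0.15 in the 4 exposures at 2 h, none called, and median-of-ratios scaling brought herbal shisha and charcoal-heated tobacco past the threshold (adjusted p = 0.0405 and 0.0287). NDRG1 after herbal shisha passed on the compared groups alone (adjusted p = 0.0132). PDK1 and LDHA were not called in any exposure at 2 h; the 95% intervals after charcoal-heated tobacco were -0.15 to 0.23 for PDK1 and -0.19 to 0.71 for LDHA. ANKRD37 was called lower after charcoal alone (adjusted p = 0.0412), a call lost without any of 5 of the 6 wells, all but replicate 2 of the control (adjusted p = 0.0523 to 0.158), and under each of 4 other settings (adjusted p = 0.0506 to 0.068).

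The effects at the 2 times were compared directly, as the effect at 24 h minus that at 2 h, each against its own control. After electrically heated tobacco and after charcoal-heated tobacco the difference was negative and called for 8 of 8 genes, where 22.8% and 10.8% of all genes were. After herbal shisha it was called for 6 of 8 (8.3% of all genes), PFKFB4 and DDIT4 being the exceptions. After charcoal alone it was negative and called for BNIP3, PDK1 and HK2 (7% of all genes) and positive for DDIT4 (log2 difference 1.01, adjusted p = 0.00178; 16.2% of all genes were positive). Without replicate 1 of herbal shisha at 24 h, PFKFB4 was called as well in that exposure (log2 difference -0.55, adjusted p = 0.00485). ANKRD37 was not called in any exposure, and passed after charcoal-heated tobacco without replicate 3 of that exposure at 2 h (adjusted p = 0.0433). The call on LDHA after herbal shisha was lost without replicate 3 of the 2 h control or replicate 2 or 3 of herbal shisha at 2 h (adjusted p = 0.0545 to 0.0725). That on DDIT4 after charcoal-heated tobacco was lost without replicate 1 of that exposure at either time or replicate 2 of the 24 h control (adjusted p = 0.0513 to 0.0652).

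Median-of-ratios scaling, which lines libraries up on their median gene, moved the balance of calls over all genes and not the direction of any called result of the 9 genes. The higher calls made up 24.2% to 33.4% of all calls in the exposures against control at 2 h, and 46.1% to 58.2% after scaling. At 24 h against the 24 h control they made up 53.7% to 61.4%, and 47.9% to 49.7% after scaling. For electrically heated against charcoal-heated tobacco at 2 h the shares were 54.4% and 42.9%, and for the differences between times 60.4% to 74.3% and 44.6% to 51.1%. The median of all genes in those differences was 0.12 after herbal shisha and 0.13 after charcoal-heated tobacco, and 0.0078 and 0.0091 after scaling.

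Pairs of exposures that differ by 1 named change were also compared. As doses were matched on toxicity and not on the amount of smoke, the exposures of a pair may differ in that amount too. The same holds for the comparisons of tobacco and of heating below. At 24 h 7 of the 8 genes were lower after herbal shisha than after charcoal alone, where 15.3% of all genes fell. LDHA was the exception. NDRG1 fell by 1.35 log2 units (adjusted p = 6.19e-05), PFKFB4 by 0.95 (adjusted p = 8.33e-06) and SLC2A1 by 0.64 (adjusted p = 1.08e-06). The calls on PDK1 and HK2 were weaker (adjusted p = 0.0438 and 0.0131). PDK1 was lost without replicate 1 or 2 of charcoal alone or replicate 3 of herbal shisha (adjusted p = 0.0979 to 0.297), on the compared groups alone (adjusted p = 0.137), without the filter (adjusted p = 0.074) and with a pseudocount of 0.1 (adjusted p = 0.0503). HK2 was lost without replicate 1 of charcoal alone or replicate 3 of herbal shisha (adjusted p = 0.0787 to 0.0946) and on the compared groups alone (adjusted p = 0.0599). At 2 h only PFKFB4 was called lower in the same comparison (log2 change -0.43, adjusted p = 0.017), where 14.3% of all genes fell. The call was lost without replicate 2 of charcoal alone or replicate 3 of herbal shisha (adjusted p = 0.0543 to 0.0855). On the compared groups alone NDRG1 and SLC2A1 passed as well at 2 h (adjusted p = 0.0183 and 0.0281).

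Tobacco in place of herbal shisha on charcoal gave few differences over all genes. Among the 8 genes it gave calls at 24 h only, which depended on single wells or on the fit. At 2 h limma called 0 of 8 genes, 0 of 8 had an unadjusted p below 0.05, and 0.61% of all genes were called. At 24 h 4 of 8 fell, BNIP3, DDIT4, HK2 and PDK1, where 2.71% of all genes did. BNIP3 held 39.5, 41.3 and 40.5 FPKM with tobacco, against 77.9, 60.9 and 55.1 FPKM with herbal shisha (log2 change -0.65, SE 0.09, adjusted p = 0.000529). The other 3 calls were lost without replicate 1 of herbal shisha, DDIT4 at a log2 change of -0.32 (adjusted p = 0.0906), PDK1 at -0.27 (adjusted p = 0.172) and HK2 at -0.28 (adjusted p = 0.192). They were also lost without replicate 1 of tobacco, and PDK1 and HK2 without replicate 2 of either group and HK2 without replicate 3 of tobacco (adjusted p = 0.0642 to 0.247 over all these). On the compared groups alone none of the 4 was called, BNIP3 at an adjusted p = 0.365. NDRG1 was not called (log2 change -0.38), and stood at 0.095 without replicate 1. PFKFB4 passed without replicate 3 of either group (adjusted p = 0.015 to 0.0199).

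Electric heating in place of charcoal under tobacco gave calls in both directions. At 24 h NDRG1, HK2 and DDIT4 rose and LDHA fell, where 22.9% of all genes rose and 24.9% fell, so that the number called was near the background. LDHA held 177, 159.7 and 135 FPKM on the electric heater, against 238, 282 and 255 FPKM on charcoal (log2 change -0.72, SE 0.22, adjusted p = 0.00898). HK2 held 6.04, 5.45 and 5.43 FPKM, against 3.71, 3.10 and 3.26 FPKM on charcoal (log2 change 0.61, SE 0.10, adjusted p = 3.74e-05). NDRG1 and DDIT4 were 1.74 and 1.54 times as high on the heater by the means (adjusted p = 0.00721 and 0.00363). BNIP3 and PDK1 were not called, with 95% intervals of -0.082 to 0.28 and -0.21 to 0.16 log2 units. SLC2A1 passed without replicate 1 of charcoal heating or replicate 2 of electric heating (adjusted p = 0.0164 to 0.0168), and PFKFB4 without replicate 1 of charcoal heating (adjusted p = 0.0303). At 2 h DDIT4 and PFKFB4 rose and SLC2A1 and HK2 fell with electric heating (12.7% and 10.6% of all genes rose and fell). DDIT4 held 13.2, 13.8 and 17.4 FPKM on the electric heater, against 6.04, 5.09 and 5.54 FPKM on charcoal (log2 change 1.26, SE 0.15, adjusted p = 4.54e-06). The calls on PFKFB4 and HK2 were lost in some settings: PFKFB4 without replicate 3 of charcoal heating or replicate 1 of electric heating (adjusted p = 0.0638 to 0.072), and HK2 on the compared groups alone (adjusted p = 0.0887).

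The 9 genes varied in how far they followed each other over the 10 group means, which share the same libraries. Pearson's r of the mean log2 values was 0.932 for ANKRD37 and DDIT4 and 0.929 for BNIP3 and PDK1, and it was 0.006 for SLC2A1 and DDIT4 and 0.225 for PFKFB4 and ANKRD37. Over all genes tested with a mean of 1 FPKM or more, the patterns most like BNIP3 over the 10 groups were those of FGF11 (r = 0.985) and AK4 (0.974). NDRG1 was most like ALDOC (0.958) and SPAG4 (0.930), PDK1 like DARS (0.950) and C4orf3 (0.945), and LDHA like GBE1 (0.960) and ACADVL (0.948). SLC2A1 was most like ROPN1L (0.953) and KLF9 (0.946), and PFKFB4 like FAM20C (0.978) and TLN1 (0.976). HK2 was most like C10orf10 (0.941) and then P4HA2-AS1 (0.846), an antisense gene whose reads cannot be told from its partner's, since a strand setting was not given. ANKRD37 and DDIT4 were both most like CSNK1G1 or close to it (0.960 and 0.971), with CIART at 0.969 for ANKRD37 and SLC12A7 at 0.955 for DDIT4. ANKRD37 reached 1 FPKM in 6 of the 30 libraries and was listed at 0 in 4, so its r values rest on low levels. SPAG4, CIART and ROPN1L were low too, with lowest group means of 0.376, 0.624 and 0.805 FPKM. The r values describe likeness over 10 groups and were not tested.

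Other genes of the pathway were taken from lists chosen by function. Like the 9 genes, they were chosen with earlier results of these data known. Their counts therefore describe these data and are no independent support. A listed gene without a row in the data could not be tested, whatever its expression. Of 30 further genes of glucose uptake, glycolysis and lactate, 25 had a row and 22 were tested. In the 24 h control 14 of them rose over the 2 h control and none fell (7.44% and 9.44% of all genes; median 0.41). PGK1, which makes ATP in glycolysis, rose by 0.94 log2 units (adjusted p = 1.52e-09), the glucose 6-phosphate isomerase GPI by 0.56 (adjusted p = 3.67e-09), the glycogen branching enzyme GBE1 by 0.57 and the aldolase ALDOA by 0.56. Against the 24 h control 9 fell and none rose after charcoal alone (3.82% and 6.05% of all genes), and 14 fell and 4 rose after herbal shisha (10.4% and 16.5%). After charcoal-heated tobacco 15 fell and 4 rose (18.6% and 25.9% of all genes), and after electrically heated tobacco 15 fell and 3 rose (29.5% and 34.3%). PGK1 fell by 0.86 log2 units after charcoal-heated tobacco (adjusted p = 4.73e-09), and GBE1 and the phosphofructokinase PFKP by 0.91 and 0.92 after electrically heated tobacco (adjusted p = 4.2e-12 and 6.66e-12). SLC16A1, a lactate and pyruvate carrier, rose against the 2 h control after herbal shisha, charcoal-heated and electrically heated tobacco, by 0.32, 0.32 and 0.62 log2 units. At 2 h PFKFB3, the sister gene of PFKFB4, rose after charcoal alone, herbal shisha and charcoal-heated tobacco, by 0.89, 0.75 and 0.58 log2 units (adjusted p = 3.93e-07, 3.17e-06 and 8.86e-05), where PFKFB4 fell or was not called.

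**Figure D4:**
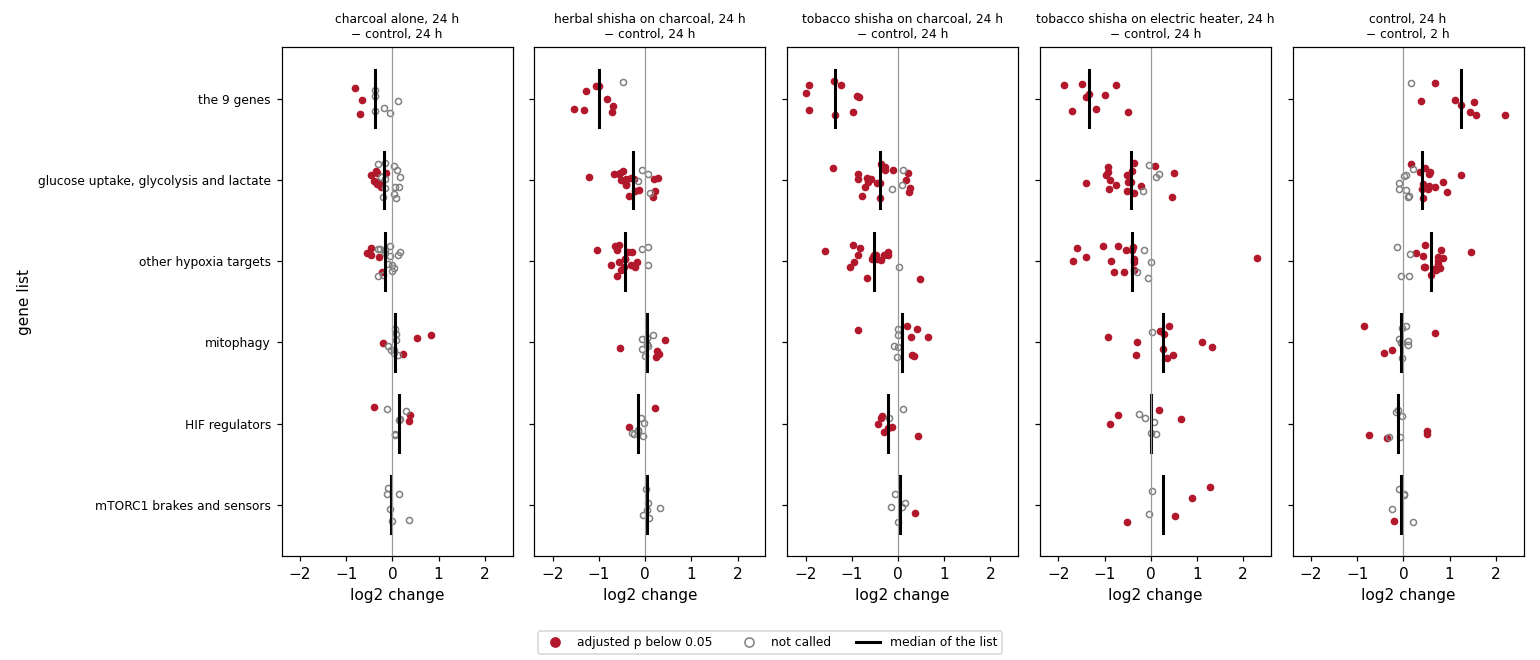
Log2 change of FPKM + 1 (x axis) of each tested gene of 6 lists (y axis), for the 4 exposures at 24 h against the 24 h control and for the 24 h against the 2 h control; filled points had an adjusted p below 0.05 and bars mark list medians. The 9 genes and both lists of glycolysis and hypoxia genes lie mostly left of 0 after the shisha exposures and right of 0 in the control over time, while the mitophagy list lies on both sides.

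Of 30 other hypoxia targets 22 had a row in the data and 19 were tested. Of the 19, 15 rose and none fell in the 24 h control over the 2 h control (7.44% and 9.44% of all genes, median 0.60). The adenylate kinase AK4 rose by 1.46 log2 units (adjusted p = 3.52e-10), FAM162A by 0.82, the collagen cross-linking enzyme LOX by 0.71 and the collagen prolyl hydroxylase P4HA2 by 0.67. Against the 24 h control 5 fell after charcoal alone and 16 after herbal shisha (3.82% and 10.4% of all genes), with none higher (6.05% and 16.5%). After charcoal-heated tobacco 17 fell and 1 rose (18.6% and 25.9% of all genes), and after electrically heated tobacco 14 fell and 1 rose (29.5% and 34.3%). AK4 fell by 1.57 log2 units after charcoal-heated tobacco and by 1.69 after electrically heated tobacco (adjusted p = 3.82e-11 and 2.17e-12), and LOX by 1.59 after electrically heated tobacco (adjusted p = 8.28e-16). The gene that rose after electrically heated tobacco was ANGPTL4, a secreted inhibitor of lipoprotein lipase, at 4.72 FPKM, against 0.136 FPKM in the 24 h control. At 2 h the secreted factors VEGFA and ADM rose in all 4 exposures, VEGFA by 1.27 to 1.61 log2 units, and ADM by 2.16 after electrically heated tobacco. The 9 genes had no such shared rise at 2 h.

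Mitophagy genes divided. Of 18 listed 13 had a row in the data and 12 were tested. BNIP3L (NIX), the closest relative of BNIP3, rose by 0.69 log2 units in the 24 h control over the 2 h control (adjusted p = 6.83e-08), while PINK1, a kinase that marks damaged mitochondria, fell by 0.85 (adjusted p = 7.48e-06). Against the 24 h control BNIP3L fell by 0.55, 0.86 and 0.93 log2 units after herbal shisha, charcoal-heated and electrically heated tobacco (adjusted p = 2.85e-06, 1.45e-09 and 3.47e-11). PINK1 rose by 0.83 after charcoal alone (adjusted p = 2.91e-05), and MAP1LC3B, a coat protein of autophagosomes, by 1.34 after electrically heated tobacco (adjusted p = 5.96e-09). In all, 3 of 12 rose and 1 fell after charcoal alone (6.05% and 3.82% of all genes), and 4 rose and 1 fell after herbal shisha (16.5% and 10.4%). After charcoal-heated tobacco 6 rose and 1 fell (25.9% and 18.6% of all genes), and after electrically heated tobacco 8 rose and 3 fell (34.3% and 29.5%).

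Of 12 HIF regulators 9 had a row in the data, and all 9 were tested. ARNT, EGLN1 and EGLN2 had no row, so their expression is unknown here. In the 24 h control EPAS1 (HIF2A) fell by 0.75 log2 units against the 2 h control (adjusted p = 5.43e-10). EGLN3, a HIF prolyl hydroxylase that HIF itself induces, and CITED2, which competes with HIF for its coactivators, rose by 0.50 and 0.52. EGLN3 lay near the limit of the filter, with means of 0.511 FPKM in the 2 h control and 1.14 FPKM in the 24 h control. Against the 24 h control 2 of the 9 rose and 1 fell after charcoal alone (6.05% and 3.82% of all genes), and 1 rose and 1 fell after herbal shisha (16.5% and 10.4%). After charcoal-heated tobacco 1 rose and 6 fell (25.9% and 18.6% of all genes), and after electrically heated tobacco 2 rose and 2 fell (34.3% and 29.5%). EPAS1 fell by 0.35 log2 units after herbal shisha (adjusted p = 3.71e-05). CITED2 fell by 0.43 after charcoal-heated tobacco (adjusted p = 0.00496), and ARNT2, a relative of ARNT, fell by 0.88 after electrically heated tobacco (adjusted p = 8.38e-09). HIF1AN, the asparagine hydroxylase that blocks HIF activity, rose against the 24 h control after herbal shisha, charcoal-heated and electrically heated tobacco, by 0.22, 0.43 and 0.66 log2 units (adjusted p = 0.00254, 4.37e-07 and 1.25e-10). HIF1A and EPAS1 rose after charcoal alone, by 0.37 and 0.37 (adjusted p = 0.000641 and 5.28e-05). These are mRNA levels, and HIF proteins are controlled mainly by their breakdown. At 2 h CITED2 rose in all 4 exposures, most after electrically heated tobacco (log2 change 2.15, adjusted p = 1.98e-12). Of 12 other brakes and sensors of mTORC1, 9 had a row in the data and 6 were tested. Against the 24 h control 1 rose after charcoal-heated tobacco (25.9% of all genes). After electrically heated tobacco 3 rose and 1 fell, near the background (34.3% and 29.5% of all genes), with SESN2, a stress-induced brake, up by 1.29 log2 units (adjusted p = 1.96e-06) where DDIT4 fell.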

How the data were processed

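RNA of 30 BEAS-2B wells (3 per group) was sequenced. Library input was 1 ug of total RNA, sequenced as 50 bp single ends, per the labels' protocols. The submitters' processing notes name HISAT2 2.1.0, StringTie 1.3.4d and the hg38 build. For annotation release, strand setting and filters, the sources used here give nothing. The authors deposited FPKM values, per the file headers, on 29190 rows per library. Counts and depth are not held in these files, so no count test or counting interval was possible. The rows of NDRG1, PDK1, LDHA and PFKFB4 hold more decimals than the rest; how transcripts of a gene were combined was not given.

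Values were taken as log2(FPKM + 1), the pseudocount being 1, so changes of genes near 1 FPKM are understated. Genes with 1 FPKM or more in at least 3 libraries (8531) were fitted with limma 3.58.1 (trend) in R 4.3.3, with a mean per group over all 30 libraries (20 residual degrees of freedom, prior 2.76), and no scaling between libraries. The spread of a gene is thus shared by its 10 groups. Benjamini-Hochberg adjustment ran over the 8531 genes in each comparison, and calls needed an adjusted p below 0.05. With 3 wells against 3, an exact permutation test cannot go below 0.1, so none was used. Tables and figures were made with Python 3.11.15, pandas 2.3.3, numpy 2.4.6, scipy 1.17.1 and matplotlib 3.10.9. The fit was tested on simulated data.

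The 9 genes, the pathway lists and the markers were chosen with earlier results of these data known. The text names the 9 genes, up to 4 genes per list with the smallest p between the controls and up to 2 in each exposure comparison, and the 2 genes most like each member. Same-numbered wells were not paired: in 0 of 19 comparisons did all 3 pairs of deviations correlate above 0.1 (range -0.107 to 0.231). Alternatives were a replicate block, the compared groups alone, no filter, a pseudocount of 0.1, median-of-ratios scaling, summed rows of a name and leaving out each library. Attention to replicate 1 of herbal shisha at 24 h was added after seeing the data.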

Additional observations from a re-analysis of the deposited data

Results flagged for a closer look

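The effect at 24 h minus the effect at 2 h, each against its own control, was taken 36 times for the 9 genes. Of these differences 26 passed the threshold (limma, adjusted p below 0.05), and a result was listed when it did. All but 1 of the 26 were negative. Over all genes tested, 23.2% passed in either direction after charcoal alone and 32.3% after herbal shisha. The shares were 41.1% after charcoal-heated and 57.6% after electrically heated tobacco. After charcoal alone the log2 differences were -0.65 for BNIP3, -0.74 for PDK1, -1.21 for HK2 and 1.01 for DDIT4. After herbal shisha on charcoal they were -1.47 for BNIP3, -1.82 for NDRG1, -1.08 for PDK1, -0.96 for LDHA, -0.92 for SLC2A1 and -1.42 for HK2. After charcoal-heated tobacco they were -2.13 for BNIP3, -2.05 for NDRG1, -1.42 for PDK1, -1.25 for LDHA, -1.18 for SLC2A1, -0.61 for PFKFB4, -1.71 for HK2 and -0.63 for DDIT4. After electrically heated tobacco they were -1.89 for BNIP3, -1.30 for NDRG1, -1.40 for PDK1, -2.01 for LDHA, -1.05 for SLC2A1, -1.30 for PFKFB4, -0.69 for HK2 and -1.31 for DDIT4. In these differences the 24 h control, itself higher than the 2 h control for most of the 9 genes, enters the 24 h effect, and no explanation was tested. No group has the 4 wells needed to test for a single outlying well.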

How the results depend on the processing

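Of 207 results for the 9 genes 113 were called, a tally over all comparisons and not a result about the genes. Over 2700 recomputed values 2540 kept direction and side of the threshold, 74 lost the call, 30 gained one and 56 changed sign, and 0 of those that changed sign belonged to a called result. Summing the rows of a name changed 0 of 207. With the replicate number as a block, 206 of 207 results kept their call and ANKRD37 after charcoal alone at 2 h lost its own (adjusted p = 0.0506); the wells are not shown to be paired by number.

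Counts of the 9 genes called moved on the compared groups alone to 5 for charcoal alone at 24 h against its control (3 in the fit over all groups), to 5 for charcoal-heated tobacco at 24 h against the 2 h control (3), to 3 for herbal shisha against charcoal alone at 2 h (1) and to 0 for tobacco against herbal shisha on charcoal at 24 h (4). Of the 8531 genes tested 543, 2061 and 1217 rose and 339, 1595 and 1509 fell in the first 3 of these fits. In the fit over all groups 9.87%, 46.6%, 24.4% and 5.12% of all genes were called in the 4 comparisons. For tobacco against herbal shisha at 24 h, limma on the compared groups alone called 0 of all genes, with 1052 at an unadjusted p below 0.05. Without the filter the count there was 2 of the 9 genes. Leaving out each well gave 1 to 5 there and 0 to 1 for herbal shisha against charcoal alone at 2 h. These last counts are given without a share over all genes. The causes were not tested.

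Sign changes were confined to uncalled values. With median-of-ratios scaling, log2 changes became 0.027 for BNIP3 and 0.056 for LDHA after charcoal alone at 2 h, and 0.043 for PDK1 and 0.032 for DDIT4 after electrically heated tobacco at 2 h. With a pseudocount of 0.1, differences between times became 0.17 for ANKRD37 and 0.086 for DDIT4 after herbal shisha and 0.14 for ANKRD37 after electrically heated tobacco. Leaving out each well in turn gave these ranges of log2 change where a sign turned: for charcoal alone at 2 h BNIP3 -0.11 to 0.0025 and LDHA -0.24 to 0.18, for herbal shisha at 2 h PDK1 -0.041 to 0.092, for electrically heated tobacco at 2 h BNIP3 -0.036 to 0.043, PDK1 -0.086 to 0.048, HK2 -0.13 to 0.076 and DDIT4 -0.14 to 0.043, for herbal shisha at 24 h against the 2 h control NDRG1 -0.48 to 0.27 and DDIT4 -0.027 to 0.44. Further such ranges were, for charcoal-heated tobacco at 24 h against the 2 h control LDHA -0.069 to 0.27, for tobacco against herbal shisha on charcoal at 2 h BNIP3 -0.044 to 0.068, PDK1 -0.050 to 0.084, LDHA -0.20 to 0.26, ANKRD37 -0.27 to 0.095 and DDIT4 -0.052 to 0.053, for electric against charcoal heating at 2 h NDRG1 -0.083 to 0.054, PDK1 -0.13 to 0.0056, LDHA -0.20 to 0.18 and ANKRD37 -0.084 to 0.31, for herbal shisha against charcoal alone at 24 h ANKRD37 -0.18 to 0.050. The remaining ones were, for tobacco against herbal shisha on charcoal at 24 h NDRG1 -0.66 to 0.095, for electric against charcoal heating at 24 h PDK1 -0.088 to 0.020, for the difference between times after herbal shisha DDIT4 -0.31 to 0.16.

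FPKM without counts leaves the depth unknown, so low values such as those of ANKRD37 carry no counting error here. All groups share a single estimate of spread per gene, and 3 wells per group leave single wells able to decide a call.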
